A study of Mus musculus with 12 samples.

Results

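The 10 genes examined here carry out or oppose the withdrawal of myoblasts from the cell cycle: the CDK inhibitors *Cdkn1a*, *Cdkn1b*, *Cdkn1c*, and *Cdkn2c*, the pocket protein genes *Rb1*, *Rbl1*, and *Rbl2*, and the D-type cyclins *Ccnd1*, *Ccnd2*, and *Ccnd3*. They were chosen by name from the 55536 genes of the read count table, and all 10 passed the filter on low counts that kept 14499 genes for testing. RNA-seq was performed on C2C12 GFP cells, an immortalized mouse myoblast line that expresses green fluorescent protein in every group, after culture under differentiation conditions on 4 surfaces: uncoated plates (control), Collagen I, fibronectin, and Geltrex™, a basement membrane matrix with reduced growth factors. Each group had 3 samples from this 1 cell line. The day of differentiation at which the sequenced RNA was taken is not given in the sources used here, nor is it stated whether the samples of a group were separate cultures, so p-values measure the spread between these samples, which may be technical.

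Before a myoblast fuses into a myotube it leaves the cell cycle, and in muscle this exit is normally permanent. D-type cyclins bind CDK4 and CDK6 and phosphorylate the pocket proteins, which otherwise hold E2F factors at the promoters of S phase and mitosis genes. Inhibitors of the Cip/Kip family (p21, p27, p57) and of the INK4 family (p18 among them) restrain the cyclin-dependent kinases, and p21 together with the retinoblastoma protein is known for its role in the exit of differentiating C2C12 cells.

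Total counts on genes lay between 22520404 and 27351766 per sample, and TMM factors between 0.971 and 1.04. CPM values are counts scaled to library size by TMM and compare 1 gene, or the sum of a list, between samples. FPKM values are the same CPM divided by exon length and are used for the shares and sums of the gene families. Count ratios of a gene pair are not divided by exon length, so they compare samples and not the levels of the paired genes. A gene was called at an adjusted p of at most 0.05 in the quasi-likelihood test of edgeR, adjusted for all genes tested by the Benjamini-Hochberg procedure, and every adjusted p for a gene below comes from that fit. Log2 fold changes are the first-named group minus the second, with the standard error (SE).

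The muscle label was checked against markers. Of 11 differentiated muscle markers, 10 were tested, and their summed level was 7050 to 8010 CPM in the control, 7590 to 7870 on Collagen I, 2400 to 2790 on fibronectin, and 3230 to 3500 on Geltrex™. The remaining one, *Myf6*, was too low to test. Of 11 adipocyte, osteoblast, endothelial, and blood markers, only *Pparg*, an adipocyte factor, passed the filter. It read 10.3 to 11.5 CPM in the control, 9.96 to 13.5 on Collagen I, 15.5 to 17.9 on fibronectin (log2 fold change over the control 0.57, adjusted p = 0.00163), and 14.9 to 15.6 on Geltrex™ (0.48, adjusted p = 0.00546), higher in each library of these 2 coatings than in any control library. The summed level of the 11 markers was 10.9 to 11.9 CPM in the control, 10.7 to 14.0 on Collagen I, 16.1 to 18.2 on fibronectin, and 15.5 to 16.2 on Geltrex™. Summed counts of 16 mitosis genes were 268 to 335 CPM in the control, 235 to 245 on Collagen I, 864 to 1140 on fibronectin, and 887 to 954 on Geltrex™. In bulk RNA, fewer cells of a type and less RNA per cell cannot be told apart, and the part that a different share of cycling, differentiated, or other cells played in the values below was not tested.

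The regulatory sequence before the pocket protein genes *Rbl1* and *Rbl2* is shown because one of these close relatives changed with the coating and the other was not called. RefSeq windows on GRCm38.p6, from 250 bases before to 50 after a transcript start, were at hand for 6 of the 10 genes (*Cdkn1a*, *Cdkn1b*, *Cdkn2c*, *Rbl1*, *Rbl2*, and *Ccnd3*), in 9 windows. Both strands were searched for E2F words (TTTCCCGC, TTTCGCGC, TTTGCCGC, or TTTGGCGC), for the cell cycle homology region or CHR (TTTGAA), for the E-box CAGCTG, and for the GC box (GGGCGG). The 250 bases before each start are written 5′ to 3′ on the gene's own strand, with the E2F word of *Rbl1* and the CHR of *Rbl2* (read on the opposite strand) in capitals.
Rbl1, chr2:157204535-157204784, minus strand: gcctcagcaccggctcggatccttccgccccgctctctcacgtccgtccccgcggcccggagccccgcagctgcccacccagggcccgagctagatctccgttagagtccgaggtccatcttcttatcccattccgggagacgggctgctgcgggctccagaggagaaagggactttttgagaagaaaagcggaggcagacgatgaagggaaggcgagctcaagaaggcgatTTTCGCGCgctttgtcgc
Rbl2, chr8:91069807-91070056, plus strand: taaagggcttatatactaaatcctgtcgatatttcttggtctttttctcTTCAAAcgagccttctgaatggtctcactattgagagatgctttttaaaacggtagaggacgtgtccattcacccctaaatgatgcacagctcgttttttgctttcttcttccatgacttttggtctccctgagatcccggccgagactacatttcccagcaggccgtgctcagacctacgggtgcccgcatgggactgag

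*Rbl1* was the only one of the 6 genes with an E2F word in its windows, which began 18 bases before the start. Such a word was present in 742 of all 32817 windows, or 2.26%. *Rbl2* was the only one with a CHR, which began 201 bases before the start, and 17.9% of all windows held this word. The GC box lay in 7 of the 9 windows, against 35.6% of all windows, and the E-box CAGCTG in 2 of the 9 (*Cdkn1a* and *Rbl1*), against 16.3%. None of these words overlapped one of another kind in the 9 windows. Among the S phase genes listed for comparison, 7 of 14 with a window held an E2F word, against 2.60% of all genes with a window, and among the mitosis genes 11 of 14 held a CHR, against 20.2%. A match describes letters and is not evidence of binding.

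**Figure D1:**
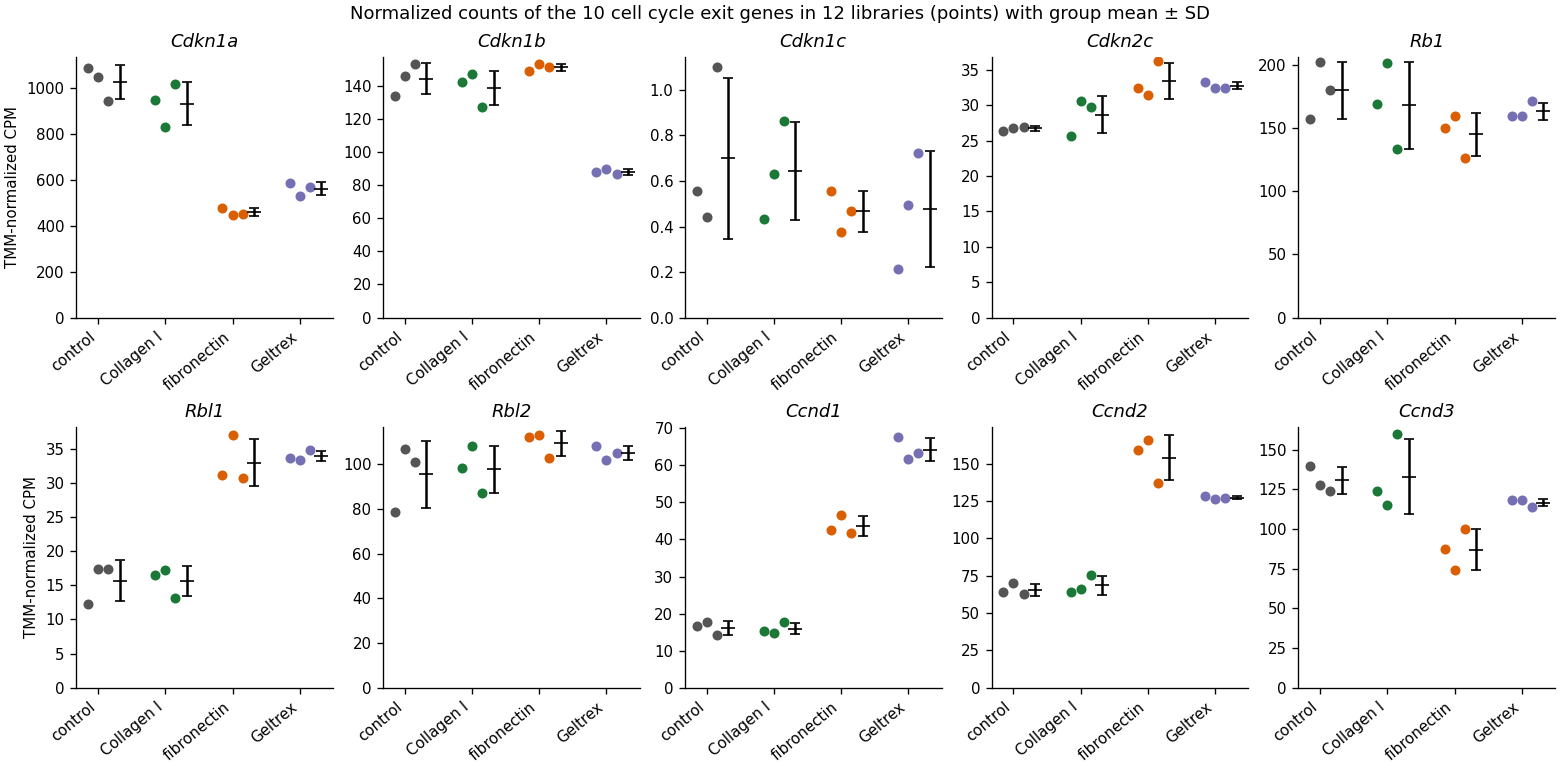
TMM-normalized CPM of each of the 10 genes (y axis, starting at 0) in each of the 12 libraries (points), by group (x axis), with the mean ± SD of 3 libraries beside them. *Ccnd1*, *Ccnd2*, and *Rbl1* were higher and *Cdkn1a* lower in every fibronectin and Geltrex™ library than in any control or Collagen I library, and *Cdkn1b* was low in the Geltrex™ libraries only.

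Among the Cip/Kip inhibitors, *Cdkn1a* fell on fibronectin and on Geltrex™, *Cdkn1b* fell on Geltrex™ and was not called on fibronectin, and *Cdkn1c* was barely detected in any group. *Cdkn1a* (chr17:29090976-29100727, plus strand, GRCm38) encodes p21, the inhibitor that myogenic factors and p53 are known to induce. Its libraries read 1090, 1050, and 944 CPM in the control and 948, 832, and 1020 CPM on Collagen I. They read 479, 448, and 450 CPM on fibronectin and 586, 532, and 568 CPM on Geltrex™. Every fibronectin library lay below every Geltrex™ library, and all 6 of them lay below the 6 libraries of the control and Collagen I. Against the control, *Cdkn1a* was 2.24-fold lower on fibronectin (log2 fold change −1.16, SE 0.0896, adjusted p = 1.47e-07) and 1.83-fold lower on Geltrex™ (−0.87, SE 0.0891, adjusted p = 1.96e-06). Geltrex™ stood 0.29 above fibronectin on the log2 scale (adjusted p = 0.0306), a difference that missed the threshold when any 1 of 5 libraries was left out.

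*Cdkn1b* (chr6:134920401-134925513, plus strand) encodes p27, an inhibitor whose protein is largely set by degradation through the Skp2 ubiquitin ligase. It read 134, 146, and 153 CPM in the control, 142, 147, and 127 CPM on Collagen I, and 149, 153, and 151 CPM on fibronectin. The Geltrex™ libraries read 88.0, 89.7, and 86.4 CPM. The Geltrex™ group thus lay apart from all other libraries, while the other groups lay within or close to one another's ranges. *Cdkn1b* was 1.64-fold lower on Geltrex™ than in the control (log2 fold change −0.71, SE 0.0771, adjusted p = 3.64e-06), 1.58-fold lower than on Collagen I (adjusted p = 7.91e-06), and 1.71-fold lower than on fibronectin (−0.78, SE 0.0772, adjusted p = 3.40e-06). The difference between fibronectin and the control was 0.07 on the log2 scale with a 95% interval from −0.11 to 0.24 (adjusted p = 0.552). The test of Geltrex™ against fibronectin is the direct test of the difference between these 2 coatings, and *Cdkn1b* had the lowest adjusted p of the 10 genes in it.

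*Cdkn1c* (chr7:143458339-143461050, minus strand) encodes p57 and is imprinted. It had 5 to 26 counts per library, with group means of 0.700 ± 0.354 CPM in the control, 0.643 ± 0.215 on Collagen I, 0.467 ± 0.0902 on fibronectin, and 0.476 ± 0.254 on Geltrex™ (SD, n = 3). The groups overlapped, and the 95% interval of the log2 fold change was −1.60 to 0.49 for fibronectin and −1.60 to 0.52 for Geltrex™ against the control. The intervals include the log2 fold changes of *Cdkn1a* on both coatings as well as 0.

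Per length, *Cdkn1a* made up most of the Cip/Kip messages in every group: 90.0% ± 1.33 of the summed FPKM in the control, 89.4% ± 1.62 on Collagen I, 79.5% ± 0.751 on fibronectin, and 89.0% ± 0.643 on Geltrex™ (SD, n = 3). The share of *Cdkn1b* was 9.90% ± 1.27, 10.5% ± 1.63, 20.4% ± 0.773, and 10.9% ± 0.624 in the same order. Fibronectin was the group with another make-up, since on Geltrex™ both genes were lower and the ranges of their shares overlapped those of the control. The summed level of the 3 genes was 322 ± 19.4 FPKM in the control, 294 ± 24.7 on Collagen I, 163 ± 4.63 on fibronectin, and 178 ± 7.48 on Geltrex™. Exon lengths were those of all annotated exons of a gene together, so the shares depend on that choice.

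**Figure D2:**
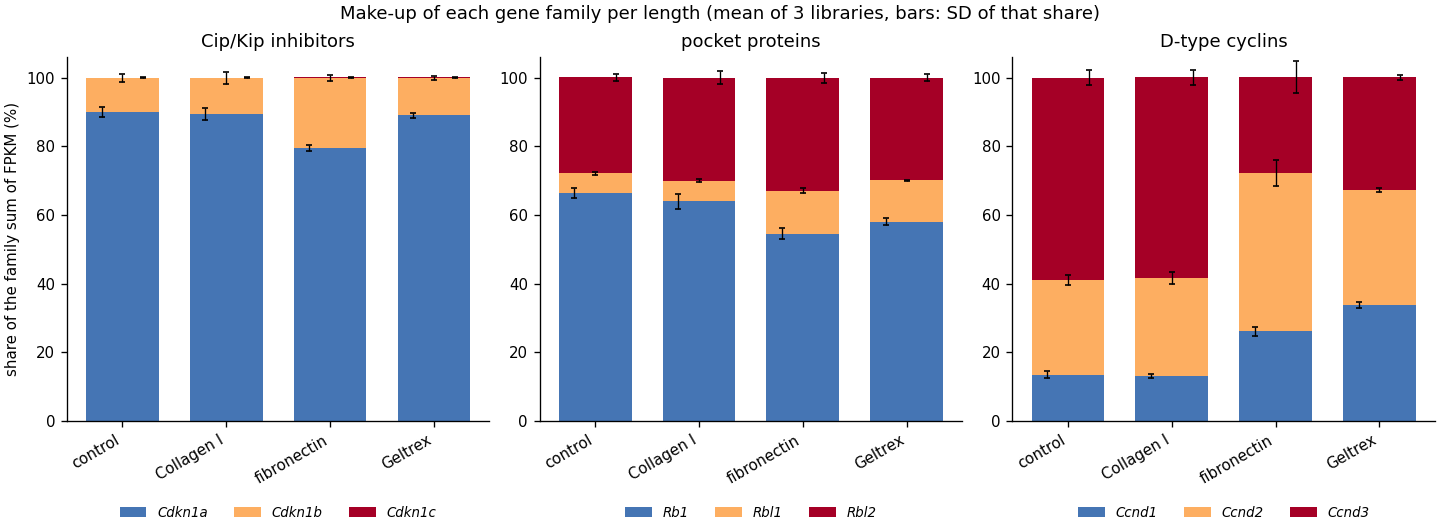
Share of each gene in the summed FPKM of its family (y axis, percent) in the 4 groups (x axis), as the mean of 3 libraries with the SD of that share. *Ccnd3* held 58.9% of the D-type cyclin level in the control and 28.0% on fibronectin, *Rb1* remained above 50% of the pocket proteins in each group, and *Cdkn1a* held 79.5% to 90.0% of the Cip/Kip inhibitors.

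The INK4 inhibitor *Cdkn2c* (chr4:109660876-109667189, minus strand), which encodes p18 and binds CDK4 and CDK6 directly, was slightly higher on both fibronectin and Geltrex™. It read 26.4, 26.8, and 27.0 CPM in the control and 25.7, 30.6, and 29.8 CPM on Collagen I. It read 32.5, 31.4, and 36.3 CPM on fibronectin and 33.3, 32.5, and 32.4 CPM on Geltrex™. The fibronectin and Geltrex™ libraries all lay above all control and Collagen I libraries, by a small margin over Collagen I. The log2 fold change against the control was 0.32 on fibronectin (SE 0.0862, adjusted p = 0.00956) and 0.29 on Geltrex™ (SE 0.0865, adjusted p = 0.0161). The latter missed the threshold without Geltrex™ sample 1 (adjusted p = 0.0511) and with the Geltrex™ samples summed into 1 (adjusted p = 0.174). Of the other INK4 genes, *Cdkn2a* and *Cdkn2b* had 0 counts in all 12 libraries, where a count of 0 allows up to 0.110 to 0.135 CPM per library. *Cdkn2d*, which encodes p19, was higher on fibronectin than in the control (0.35, adjusted p = 0.0465). Collagen I had a similar level and was not called (0.32, adjusted p = 0.258). *Cdkn2d* read 6.71 to 8.79 CPM in the control, 8.81 to 10.4 on Collagen I, 8.88 to 10.5 on fibronectin, and 7.80 to 9.01 on Geltrex™.

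Of the pocket protein genes, *Rbl1* rose on fibronectin and Geltrex™, while *Rb1* and *Rbl2* were not called in any of the 6 comparisons. *Rbl1* (chr2:157145893-157204534, minus strand) encodes p107, the pocket protein best known from cycling cells. It read 12.2, 17.4, and 17.4 CPM in the control and 16.5, 17.2, and 13.1 CPM on Collagen I. It read 31.2, 37.0, and 30.8 CPM on fibronectin and 33.7, 33.4, and 34.8 CPM on Geltrex™. No library of the first pair of groups reached any of the second pair. *Rbl1* was 2.11-fold higher on fibronectin (log2 fold change 1.08, SE 0.133, adjusted p = 1.85e-05) and 2.17-fold higher on Geltrex™ (1.12, SE 0.133, adjusted p = 9.47e-06) than in the control. Geltrex™ and fibronectin differed by 0.04 on the log2 scale, with a 95% interval from −0.25 to 0.34.

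*Rbl2* (chr8:91070057-91123844, plus strand) encodes p130, the pocket protein of resting and differentiated cells and a subunit of the DREAM repressor complex. Its libraries read 78.4, 107, and 101 CPM in the control, 98.4, 108, and 86.9 CPM on Collagen I, 112, 113, and 103 CPM on fibronectin, and 108, 102, and 105 CPM on Geltrex™. The groups overlapped, and control sample 1 was the lowest of all 12. The log2 fold change against the control was 0.20 on fibronectin (95% interval −0.04 to 0.44, adjusted p = 0.163) and 0.14 on Geltrex™ (−0.10 to 0.39, adjusted p = 0.330).

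*Rb1* (chr14:73183673-73325822, minus strand), which encodes the retinoblastoma protein, varied among the samples of the control, Collagen I, and fibronectin, and less among those of Geltrex™. It read 157, 202, and 180 CPM in the control, 169, 201, and 133 CPM on Collagen I, 150, 159, and 126 CPM on fibronectin, and 159, 159, and 171 CPM on Geltrex™. Collagen I sample 3 and fibronectin sample 3 were the lowest libraries. Fibronectin stood at −0.31 on the log2 scale against the control (95% interval −0.61 to −0.01, adjusted p = 0.0841). That value passed the threshold under 4 of 20 alternative settings, among them the one without Collagen I sample 3 (adjusted p = 0.0255).

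Per length, *Rb1* was the most abundant pocket protein gene in each group, at 66.4% ± 1.43 of the summed FPKM in the control, 64.0% ± 2.16 on Collagen I, 54.6% ± 1.67 on fibronectin, and 58.0% ± 1.06 on Geltrex™ (SD, n = 3). *Rbl1* held 5.76% ± 0.496, 6.02% ± 0.312, 12.5% ± 0.797, and 12.1% ± 0.0890 in the same order. The summed level of the family was 45.1 ± 6.13, 43.4 ± 7.42, 44.1 ± 3.99, and 46.6 ± 1.29 FPKM, and these ranges overlapped.

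Within each library, the count ratio of *Rbl2* to *Rbl1* sets the pocket protein of resting cells against that of cycling cells and does not depend on library scaling. The ratio was 6.42, 6.15, and 5.79 in the control and 5.96, 6.28, and 6.63 on Collagen I. It was 3.58, 3.05, and 3.35 on fibronectin and 3.21, 3.06, and 3.01 on Geltrex™. The 6 libraries on fibronectin and Geltrex™ thus lay below the other 6, with no gap between fibronectin and Geltrex™. Mean log2 ratios were 2.61 ± 0.0755, 2.65 ± 0.0763, 1.73 ± 0.116, and 1.63 ± 0.0484 (SD, n = 3), and they differed between the 4 groups in an exact permutation test over all 15400 partitions of the samples (p = 0.00208, adjusted p = 0.00623 over 3 ratios). The ratios were chosen with earlier results of these data known, so their p-values are a description and not independent support. An exact permutation test of a single pair of groups of 3 cannot go below p = 0.10, so pairs are given by their values.

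**Figure D3:**
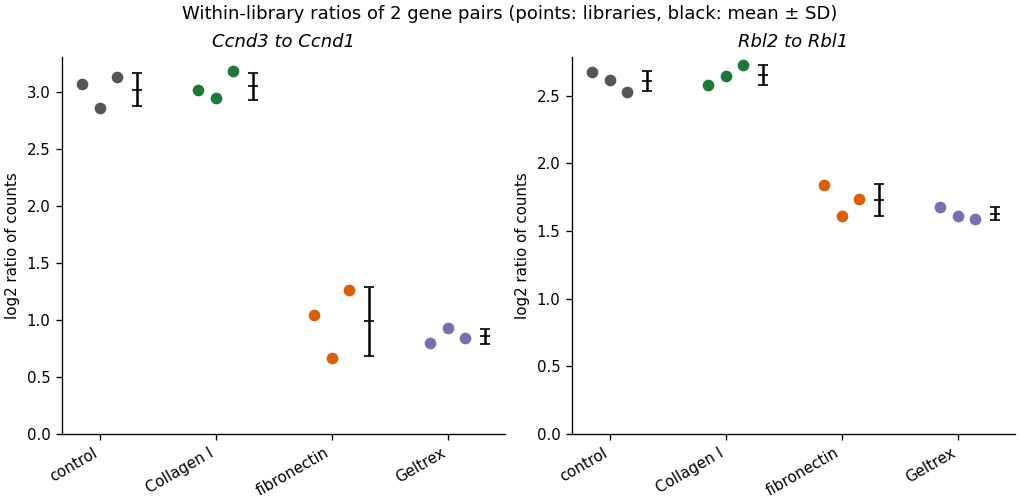
Log2 count ratio within each library (y axis, starting at 0, points) by group (x axis), with the mean ± SD of 3 libraries, for *Ccnd3* to *Ccnd1* and *Rbl2* to *Rbl1*. Control and Collagen I libraries lay at 2.86 to 3.18 for the cyclin ratio and 2.53 to 2.73 for the pocket protein ratio, above every fibronectin and Geltrex™ library.

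The D-type cyclins moved apart: *Ccnd1* and *Ccnd2* rose on fibronectin and Geltrex™, and *Ccnd3* fell on fibronectin. *Ccnd1* (chr7:144929931-144939925, minus strand) encodes cyclin D1, which mitogens and adhesion to the matrix are known to induce in myoblasts and other cells. It read 16.6, 17.6, and 14.1 CPM in the control and 15.3, 14.8, and 17.6 CPM on Collagen I. It read 42.5, 46.7, and 41.8 CPM on fibronectin and 67.7, 61.8, and 63.4 CPM on Geltrex™. The order was Geltrex™, then fibronectin, then the other 2 groups, with no overlap between these 3 levels. *Ccnd1* was 3.98-fold higher on Geltrex™ (log2 fold change 1.99, SE 0.0991, adjusted p = 2.29e-09) and 2.71-fold higher on fibronectin (1.44, SE 0.0986, adjusted p = 4.13e-08) than in the control. The direct difference between Geltrex™ and fibronectin was 0.56 (SE 0.0934, adjusted p = 0.000550) and was kept in the fits that left out 1 library.

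*Ccnd2* (chr6:127125162-127152193, minus strand) encodes cyclin D2. It read 64.0, 70.0, and 62.4 CPM in the control and 64.0, 65.8, and 75.6 CPM on Collagen I. It read 159, 166, and 137 CPM on fibronectin and 128, 126, and 127 CPM on Geltrex™. Here fibronectin was the highest group, and every library on either coating was above every control and Collagen I library. The log2 fold change against the control was 1.23 on fibronectin (SE 0.0896, adjusted p = 7.45e-08) and 0.96 on Geltrex™ (SE 0.0893, adjusted p = 7.73e-07). Geltrex™ stood 0.27 below fibronectin on the log2 scale (−0.27, adjusted p = 0.0392), and that call was lost without any 1 of 6 libraries.

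*Ccnd3* (chr17:47505051-47599691, plus strand) encodes cyclin D3, the D-type cyclin known to accumulate in differentiating myoblasts, where it binds the retinoblastoma protein. It read 140, 128, and 124 CPM in the control and 124, 115, and 160 CPM on Collagen I. It read 87.2, 73.9, and 100 CPM on fibronectin and 118, 118, and 114 CPM on Geltrex™. All 3 fibronectin libraries were below every other library, and the Geltrex™ libraries lay below the control and overlapped the Collagen I range. The log2 fold change was −0.58 on fibronectin (SE 0.120, adjusted p = 0.00169) and −0.17 on Geltrex™ (95% interval −0.44 to 0.11, adjusted p = 0.310) against the control. Geltrex™ was 0.42 above fibronectin (adjusted p = 0.0228), which missed the threshold without any 1 of 5 libraries.

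The make-up of the D-type cyclins differed accordingly. Per length, *Ccnd3* held 58.9% ± 2.11 of their summed FPKM in the control and 58.5% ± 2.22 on Collagen I, against 28.0% ± 4.67 on fibronectin and 32.8% ± 0.688 on Geltrex™ (SD, n = 3). On fibronectin the highest share was that of *Ccnd2*, at 46.0% ± 3.77. On Geltrex™ the shares of *Ccnd1*, *Ccnd2*, and *Ccnd3* were 33.8% ± 0.930, 33.5% ± 0.507, and 32.8% ± 0.688. The summed level was 25.2 ± 1.34 FPKM in the control, 25.8 ± 3.67 on Collagen I, 35.5 ± 0.643 on fibronectin, and 40.4 ± 0.855 on Geltrex™.

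The count ratio of *Ccnd3* to *Ccnd1* within a library was 8.41, 7.26, and 8.78 in the control and 8.09, 7.75, and 9.06 on Collagen I. It was 2.05, 1.58, and 2.39 on fibronectin and 1.74, 1.90, and 1.79 on Geltrex™. Again 6 libraries lay far below the other 6, and fibronectin and Geltrex™ overlapped. Mean log2 ratios were 3.02 ± 0.144, 3.05 ± 0.116, 0.99 ± 0.301, and 0.86 ± 0.0672 (SD, n = 3) and differed between the 4 groups (exact permutation test, p = 0.00448, adjusted p = 0.00672 over 3 ratios). For *Cdkn1c* to *Cdkn1a*, the third ratio, the same exact permutation test gave p = 0.651. These ratios, too, were chosen with earlier results of these data known, and their p-values are a description.

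**Figure D4:**
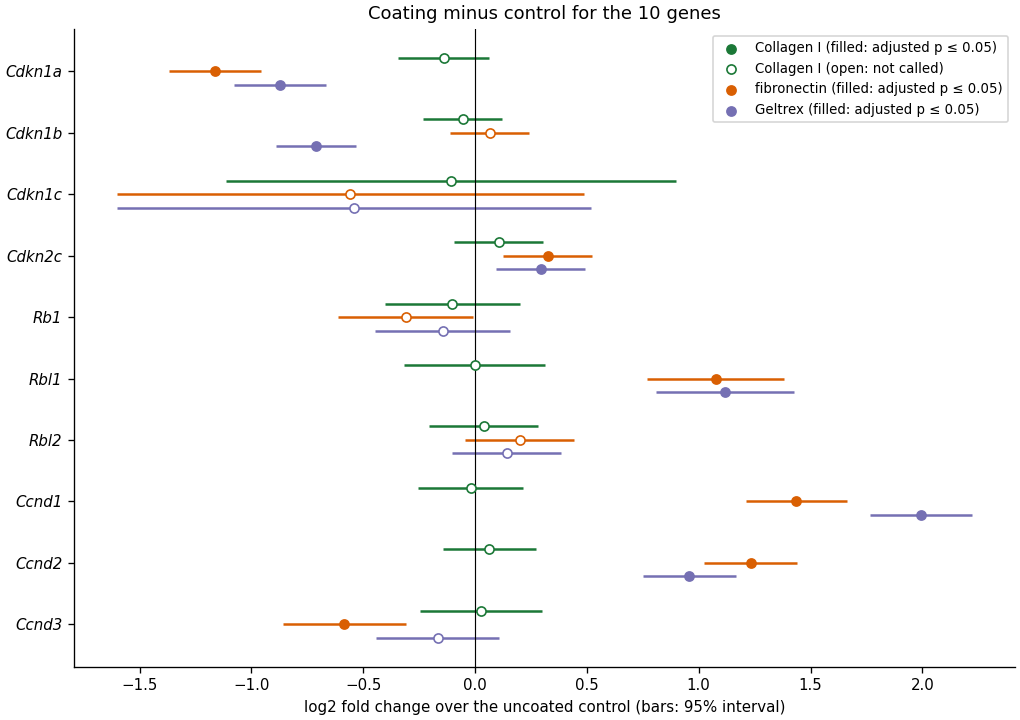
Log2 fold change of each of the 10 genes on each coating over the uncoated control (x axis) with its 95% interval (bars), filled where the adjusted p was at most 0.05. Points for Collagen I all lie between −0.14 and 0.11 and are open, and those for fibronectin and Geltrex™ reach from −1.16 to 1.99.

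Counted over the 10 genes, fibronectin against the control gave 6 calls, 4 higher and 2 lower, where 31.9% of all genes tested were called, 17.1% as higher and 14.7% as lower. Of these genes, 4 also changed at least 2-fold (*Cdkn1a*, *Rbl1*, *Ccnd1*, and *Ccnd2*), against 6.66% of all genes. The libraries of the 2 groups did not overlap for 6 genes, against 41.6% of all. Geltrex™ against the control likewise gave 4 higher and 2 lower, with a background of 33.0% called, 16.4% higher and 16.6% lower. Of its 6 calls, 2 were at least 2-fold (*Rbl1* and *Ccnd1*), against 9.14% of all genes, and 7 genes did not overlap, against 50.4%. The median log2 fold change of the 10 genes was 0.13 on fibronectin and −0.0007 on Geltrex™, against −0.02 and −0.01 over all genes tested. The 10 genes were not tested as a group, so these counts are a description.

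Collagen I against the control gave 0 calls by edgeR's quasi-likelihood test and 0 by DESeq2, and no gene of the 10 had an unadjusted p under 0.05. In this comparison 1.12% of all genes tested were called, and the libraries of the groups did not overlap for 0 of the 10 genes, against 17.3% of all. The values lay between −0.14 for *Cdkn1a* (95% interval −0.34 to 0.06) and 0.11 for *Cdkn2c* (−0.09 to 0.31). For *Ccnd1* the interval was −0.25 to 0.21, for *Ccnd2* −0.14 to 0.27, and for *Rbl1* −0.32 to 0.31. The sizes that these 3 genes showed on fibronectin or Geltrex™ lie outside those intervals. For *Rb1* the interval was −0.40 to 0.20.

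The comparisons of Collagen I with the other coatings share the fibronectin and Geltrex™ samples with those above and are given side by side. Collagen I against fibronectin gave 6 calls, 2 higher and 4 lower, with 45.0% of all genes called, 22.1% higher and 22.9% lower. *Cdkn1a* was 1.02 higher on Collagen I (adjusted p = 3.76e-07) and *Ccnd3* 0.61 higher (adjusted p = 0.000827), while *Ccnd1* stood at −1.46, *Ccnd2* at −1.17, and *Rbl1* at −1.08. The sixth call, *Cdkn2c* at −0.22 (adjusted p = 0.0496), was lost under 16 of 20 alternative settings. Collagen I against Geltrex™ gave 5 calls, 2 higher and 3 lower, with 37.1% of all genes called, 18.2% higher and 19.0% lower. These were *Cdkn1a* at 0.73, *Cdkn1b* at 0.66, *Ccnd1* at −2.01, *Rbl1* at −1.12, and *Ccnd2* at −0.89.

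Geltrex™ against fibronectin gave 5 calls, 3 higher and 2 lower, where 19.3% of all genes were called, 9.06% higher and 10.3% lower. Of these, *Cdkn1b* and *Ccnd1* were still called when each library in turn was left out, whereas *Cdkn1a*, *Ccnd2*, and *Ccnd3* each lost the call without some. The count fell to 2 or 3 without any 1 of fibronectin samples 1 and 2 and Geltrex™ samples 1, 2, and 3, and to 2 when the Geltrex™ samples, which differed little from one another, were summed into 1. None of the 5 differences reached 2-fold. *Cdkn1c*, *Rb1*, and *Rbl2* were not called in any of the 6 comparisons.

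The partners and targets of the 10 genes were described from lists of related genes. Beside the counts of these lists, 31.9% of all genes tested were called on fibronectin, 17.1% higher and 14.7% lower. On Geltrex™ the share was 33.0%, 16.4% higher and 16.6% lower. Of 10 tested genes of the G1 kinase machinery, 6 were higher and 1 lower on fibronectin, and 4 higher and none lower on Geltrex™. *Cdk6*, a kinase partner of D-type cyclins, rose by 1.22 and 1.08 on the log2 scale, and *Ccna2*, the S phase cyclin A2, by 1.68 and 1.52 (adjusted p between 1.47e-07 and 2.42e-06 for the 4 values). *Cdk2* was lower on fibronectin (−0.48, adjusted p = 0.00620), and *Ccne1*, the E-type cyclin that activates it, was higher on fibronectin (0.77, adjusted p = 0.00653) and on Geltrex™ (1.11, adjusted p = 0.000333). On Geltrex™, *Cdk2* stood at 0.10 (adjusted p = 0.543). *Cdk4*, the other kinase partner, stood at 0.22 (adjusted p = 0.0693) and 0.17 (adjusted p = 0.156).

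Of 17 E2F and DREAM factors, 8 were higher and 1 lower on fibronectin, and 5 higher and 3 lower on Geltrex™. *E2f7*, an E2F repressor, rose by 2.08 and 2.09 (adjusted p = 1.24e-07 and 8.95e-08), and *Mybl2*, a partner of the MuvB core in cycling cells, by 1.97 and 2.20, from a mean of 1.11 CPM in the control. *E2f6*, a repressor that acts without pocket proteins, fell by 0.40 and 0.37, and *Lin37*, a MuvB subunit, fell by 0.73 on Geltrex™ (adjusted p = 0.000294).

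Of 18 S phase genes, 15 were higher on fibronectin with a median over the list of 0.81, and 16 were higher and 1 lower on Geltrex™ with a median of 0.84. *Cdc6* (1.64 and 2.09) and *Mcm5* (1.42 and 1.63), which license replication origins, were among the highest, and *Cdc25a*, a phosphatase that activates Cdk2, was the 1 lower gene on Geltrex™ (−0.29, adjusted p = 0.0376). All 16 mitosis genes were higher on both coatings, with medians of 1.56 and 1.52. *Bub1*, a spindle checkpoint kinase, rose by 2.01 and 1.98, *Cenpf* by 1.93 on fibronectin, and *Mki67*, the proliferation antigen Ki-67, by 1.86 on Geltrex™. On Collagen I, 2 of the 18 S phase genes were lower than in the control, and 0 of the 16 mitosis genes were called by edgeR. In this comparison 1.12% of all genes tested were called. An unadjusted p under 0.05 was found for 8 of the 16, but the share of all genes under it is not given here. That count is therefore only a description. The median of the mitosis genes was −0.32, against −0.003 over all genes tested.

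**Figure D5:**
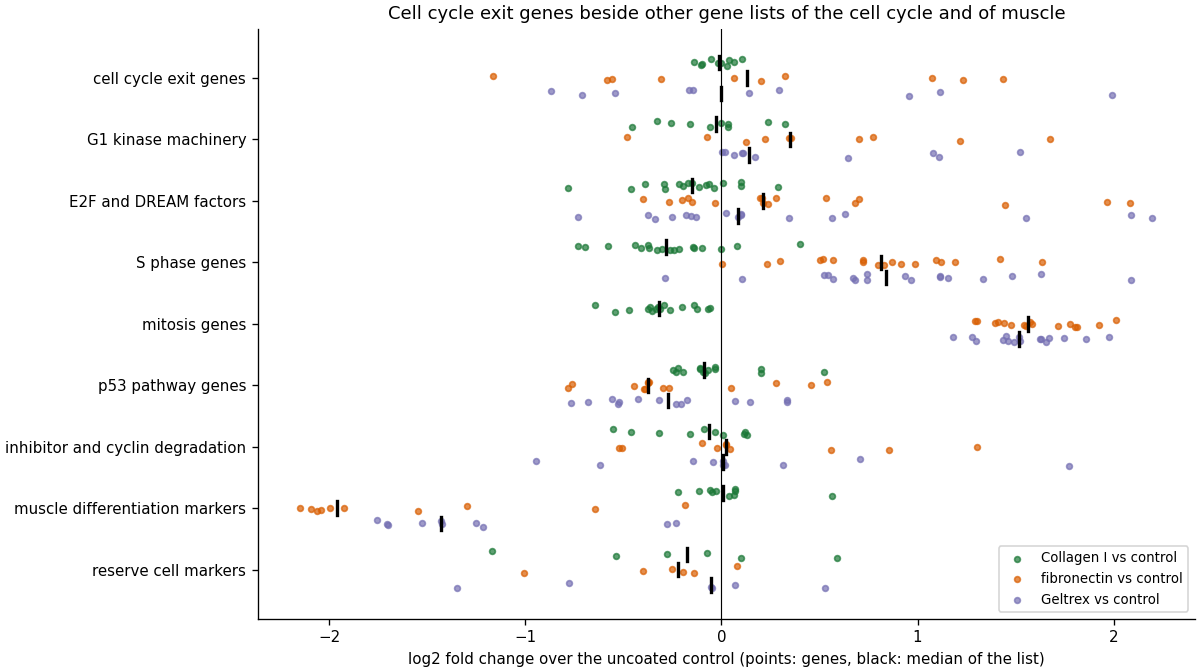
Log2 fold change over the uncoated control (x axis) of each tested gene (points) in the 10 cell cycle exit genes and in lists of related genes (y axis), with the list median as a black bar, for the 3 coatings. All 16 mitosis genes lie above 1 on fibronectin and Geltrex™, the muscle markers lie below 0 on both, and the 10 cell cycle exit genes spread to both sides.

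Among 14 genes of the p53 pathway, of which *Cdkn1a* is the best-known target, 3 were higher and 6 lower on fibronectin and 1 higher and 5 lower on Geltrex™, with medians of −0.37 and −0.28. *Aen*, an apoptosis nuclease, fell by 0.78 and 0.77, and *Gadd45a*, a stress sensor, by 0.45 and 0.68. *Btg2*, an antiproliferative factor, fell by 0.76 on fibronectin but read 46.6 to 52.5 CPM on Geltrex™ against 34.0 to 43.0 CPM in the control (0.33, adjusted p = 0.120), and the direct difference of Geltrex™ from fibronectin was 1.10 (adjusted p = 0.000173). *Sesn2*, a sestrin, was higher on both (0.46 and 0.33), and *Trp53inp1* was higher on fibronectin (0.54). *Trp53* itself stood at 0.05 and 0.15 (adjusted p = 0.703 and 0.216).

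Of 10 genes that mark the inhibitors and cyclins for degradation, 3 were higher and 2 lower on each coating, with medians of 0.02 and 0.0078. *Dtl*, the substrate receptor that targets p21 in S phase, rose by 1.30 and 1.77, and *Cks1b*, the cofactor with which Skp2 recognises p27, by 0.86 and 0.71. *Fbxw7*, which targets cyclin E, fell by 0.51 and 0.95, and *Fbxo31*, which targets cyclin D1, fell by 0.52 and 0.62. *Skp2* was higher on fibronectin (0.56, adjusted p = 0.00157) and stood at 0.01 on Geltrex™ (adjusted p = 0.966).

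Of the 10 muscle differentiation markers tested, 9 were lower on fibronectin (median −1.96) and 10 on Geltrex™ (median −1.43). *Myog*, the myogenic factor of the exit step, fell by 2.10 and 1.76, *Tnnt3*, a fast troponin, fell by 2.15 on fibronectin, and *Des*, the intermediate filament desmin, fell by 0.65 and 0.28. Of 6 markers of undifferentiated myoblasts or reserve cells, 2 were lower on fibronectin, and 1 was higher and 1 lower on Geltrex™. These counts are near the share of all genes called, 31.9% on fibronectin and 33.0% on Geltrex™. *Pax7*, with 2 to 19 counts per library, read 0.367 to 0.756 CPM in the control. It read 0.0863 to 0.372 CPM on Collagen I, 0.334 to 0.583 on fibronectin, and 0.128 to 0.316 on Geltrex™. It was called neither on Collagen I nor on Geltrex™. *Spry1*, an inhibitor of growth factor signalling in resting satellite cells, was lower on fibronectin (−1.0, adjusted p = 0.00147) and higher on Geltrex™ (0.53, adjusted p = 0.0452), and *Heyl*, a Notch target, was lower on Geltrex™ (−0.78).

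For each of the 10 genes, the gene with the most similar profile was taken as the one with the smallest root mean square difference of centred log2 CPM over the 12 samples, among 12311 genes with a mean of at least 1 CPM. *Ccnd2* was nearest to *Cdk6* (0.109, against 0.547 for the spread of *Ccnd2* itself), and *Ccnd1* to *Bard1*, a partner of Brca1 (0.155 against 0.890). *Rbl1* was nearest to *Ly75* (0.0979 against 0.576), *Cdkn1a* to *Mtss1l* (0.10 against 0.493), and *Cdkn1b* to *2610044O15Rik8* (0.0648 against 0.318). *Ccnd3* was nearest to *Cacng1*, a subunit of the muscle calcium channel (0.0429 against 0.283). The matches were looser, relative to the gene's own spread, for *Cdkn2c* with *Pfas* (0.0526 against 0.151), *Rb1* with *Kansl1l* (0.0659 against 0.196), and *Rbl2* with *Eps15* (0.0558 against 0.147). For *Cdkn1c* the nearest, *3830408C21Rik*, was at 0.285 against 0.495, so its profile had no close match.

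Neighbouring genes on the opposite strand share exon bases with several of the 10, and whether counting used the strand is not given in the sources used here, so reads in shared stretches cannot be told apart. *LTO1* covers 23.4% of the exon bases of *Ccnd1* and was lower on fibronectin (−0.29, adjusted p = 0.0303) and Geltrex™ (−0.49, adjusted p = 0.000982), opposite to *Ccnd1*. *Bysl* covers 4.11% of *Ccnd3* and was lower on both (−0.36 and −0.45). *Aktip* covers 9.17% of *Rbl2* and was lower on both (−0.25 and −0.32). *Rcbtb2* covers 8.11% of *Rb1* and was higher on both (0.36 and 0.54), while *Rb1* was not called. *Lpar6* covers 6.78% of *Rb1* and was lower on Geltrex™ (−0.60, adjusted p = 0.00649). *AC167363.2*, which covers 7.68% of *Cdkn1a*, had 153 counts in all, against 220761 for *Cdkn1a*.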

How the data were processed

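RNA-seq was performed on 12 samples of C2C12 GFP cells, 3 on each of 4 surfaces. The authors used Trimmomatic for trimming, HISAT2 for alignment, and featureCounts for counting. The deposited table holds the resulting read counts by gene, neither normalized nor pooled. Tool versions, genome build, annotation release, and strand setting are not given in the sources used here. All 55536 identifiers are in GENCODE M21 (GRCm38), which gave names, positions, and exon lengths. Reads that map to more than 1 place may have been treated in a way that affects gene families.

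The R package edgeR 4.0.16 (R 4.3.3) was applied to the counts. After filterByExpr (minimum count 10, minimum total 15) and TMM scaling, a single quasi-likelihood fit of the 4 groups with 8 residual degrees of freedom yielded 6 comparisons. SE is the size of the log2 fold change divided by the root of the F statistic, and 95% intervals use the t distribution with 8 degrees of freedom. The quasi-likelihood test adds prior degrees of freedom, so the intervals are wider than its p-values imply. FPKM is TMM CPM per kilobase of merged exons. Ratios were tested by exact permutation of the between-group sum of squares. Floors are 3 counts and cover counting error only. Simulated counts with known changes were used to test the scripts. Replicates were compared, and none differed by as little as sampling noise. The chi-square per degree of freedom between samples of a group was 2.18 to 4.54 on Geltrex™ and 7.71 to 64.6 in the other groups. The highest values, 44.4 and 64.6, were those of Collagen I sample 3 with the other samples of its group. The single fit shares its estimate of spread over the groups.

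The 10 genes and all lists and ratios were chosen with earlier results of these data known. Named genes are the 10 in every comparison, the nearest gene of each of the 10, and overlapping neighbours. From each list, genes were named among the 2 highest and 2 lowest called genes on fibronectin and on Geltrex™. *Cdk4*, *Cdkn2d*, *Trp53*, *Skp2*, *Ambra1*, *Fbxo4*, *Pax7*, and a gene's values on another coating were added after their values were seen. Alternatives were DESeq2 1.42.0, RLE and upper quartile scaling, no filter, at least 10 counts in every sample, only the 6 samples compared, the replicate number as a block, Geltrex™ samples summed into 1, a 2-fold minimum, and each sample left out.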

Additional observations from a re-analysis of the deposited data

How the results depend on the processing

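The number of the 10 genes called by edgeR stayed within 1.5 times the reported one in most settings. With a fold change of at least 2 required as well, it fell to 2 for Geltrex™ against the control, 2 for Collagen I against Geltrex™, and 0 for Geltrex™ against fibronectin. With the Geltrex™ samples summed into 1, it fell to 2 for Geltrex™ against fibronectin, in a fit that takes the lone Geltrex™ sample to vary like the other groups. Leaving out each sample in turn gave 0 to 0 calls for Collagen I against control, 6 to 7 for fibronectin against control, 5 to 6 for Geltrex™ against control, 5 to 6 for Collagen I against fibronectin, 5 to 5 for Collagen I against Geltrex™, and 2 to 5 for Geltrex™ against fibronectin.

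No called value changed sign. In Collagen I against control, the log2 fold change of *Rbl1* was 0.0242 with upper quartile scaling, 0.00618 with only the 6 samples compared, and 0.00169 with the replicate block, and that of *Ccnd1* was 0.00698 with upper quartile scaling. Without 1 sample, the values there ranged from −0.37 to 0.366 for *Cdkn1c*, −0.251 to 0.033 for *Rb1*, −0.152 to 0.0998 for *Rbl1*, −0.0825 to 0.134 for *Rbl2*, −0.108 to 0.0556 for *Ccnd1*, −0.0204 to 0.122 for *Ccnd2*, and −0.137 to 0.125 for *Ccnd3*. *Rb1* in Collagen I against Geltrex™ ranged from −0.115 to 0.185. In Geltrex™ against fibronectin, *Cdkn1c* ranged from −0.393 to 0.369, *Cdkn2c* from −0.0738 to 0.0344, and *Rbl1* from −0.00491 to 0.13, and *Cdkn1c* was at −0.0344 with the replicate block. The cause was not tested.

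Same-numbered samples did not deviate together in every pair of groups, so the numbers were not taken as pairs. With the replicate block, *Rb1* in fibronectin against control passed the threshold (−0.311, adjusted p = 0.0484) and *Cdkn2c* in Collagen I against fibronectin did not (−0.219, adjusted p = 0.0575). The ratios kept their side of the threshold in all settings, with a replicate block p of 0.0286 after adjustment for *Ccnd3* to *Ccnd1* and for *Rbl2* to *Rbl1* (exact permutation within numbers). Depth limits *Cdkn1c* most, with 5 to 26 counts per library.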
